A study of Homo sapiens with 36 samples.

Results

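The cytosolic ribosomal protein genes encode the proteins of the large (60S) and small (40S) ribosomal subunits. They were taken from the deposited count table of HepG2 cells as the rows whose symbol has the form of a ribosomal protein name (RPL or RPS with a number, RPLP0, RPLP1, RPLP2 and RPSA) and whose counts summed to at least 360 over the 36 libraries. Of the 18932 genes in the table, 84 had such a name and 82 also passed the summed count. The other two, RPL3L and RPL10L, summed to 23 and 39 counts. The 82 members comprised 50 genes of the large subunit and 32 of the small subunit, and 5 of them were variant paralogs of a canonical gene, namely RPL7L1, RPL22L1, RPL26L1, RPL39L and RPS27L. All 82 passed the filter on low counts at both time points, so none was lost before testing.

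HepG2 cells, a human line established from a liver tumour, were incubated in serum-free medium with albumin in 6 groups, each for 6 h and for 24 h. The groups were vehicle control (Ctrl, labelled DMSO/BSA), DHA (docosahexaenoic acid, 50 µM), PRO (propionate, 70 µM), PCA (protocatechuic acid, 20 µM), DHA + PRO and DHA + PCA. Each of the 12 groups held 3 libraries, numbered 1 to 3, and each library came from RNA of 3 culture wells of 1 experiment combined before sequencing. All cells were of a single line, so the spread between libraries is that between experiments on it.

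Total counts ran from 4659744 to 42326734 per library. All 18 hepatocyte markers, such as ALB and APOB, were above 10 CPM, and their sum ran from 64600 to 88200 CPM. Markers of endothelial cells summed to at most 1.66 CPM, and PTPRC and CD3E, which define leukocytes, were at 0 in 34 and 35 libraries. The leukocyte list still summed to 802 to 2600 CPM through LYZ and CD68, and the 8 fibroblast markers summed to 28.5 to 83.9 CPM, mostly through ACTA2 and PDGFRB. In bulk RNA, fewer cells of a type and less RNA per cell cannot be told apart. CPM values are counts scaled to a common library total, so an equal change of all transcripts would also leave them as they are.

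Ribosomes need their proteins in fixed and mostly equal numbers, and their genes are among the most highly transcribed in dividing cells. Many of their mRNAs begin at a cytosine that is followed by an unbroken run of pyrimidines, the 5′ terminal oligopyrimidine (TOP) tract, through which mTORC1 and LARP1 regulate their translation. The liver makes large amounts of plasma proteins, and hepatoma lines such as HepG2 keep much of that secretory work. RPL5 and RPL11 also bind MDM2 when ribosome assembly is disturbed, and several members, such as RPLP0, RPL13A and RPS18, are used as reference genes in RT-qPCR.

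The sequence around the start of the mRNA is shown for some members on which the results below turn, since it shows the run that TOP mRNAs share. Those shown without such a run are paralogs, but most of the members found to lack it were canonical genes. Each is the 30 bases from 10 before to 20 after the RefSeq start in GRCh38.p14, read 5′ to 3′ on the strand of the gene, with its longest unbroken run of C and T in capitals.
RPS6 (chr9:19380217-19380246, minus): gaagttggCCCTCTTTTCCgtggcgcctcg
RPLP0 (chr12:120201092-120201121, minus): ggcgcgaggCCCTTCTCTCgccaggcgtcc
RPLP1 (chr15:69452808-69452837, plus): ggcgcgagagCCCCTTTCCTCagctgccgc
RPL13A (chr19:49487598-49487627, plus): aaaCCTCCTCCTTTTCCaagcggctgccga
RPL41 (chr12:56116623-56116652, plus): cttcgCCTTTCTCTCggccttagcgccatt
RPL22 (chr1:6199576-6199605, minus): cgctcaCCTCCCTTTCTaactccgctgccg
RPL22L1 (chr3:170870176-170870205, minus): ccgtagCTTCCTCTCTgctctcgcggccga
RPS27 (chr1:153990752-153990781, plus): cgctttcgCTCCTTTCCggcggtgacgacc
RPS27L (chr15:63157458-63157487, minus): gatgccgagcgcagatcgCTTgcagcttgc
RPL26 (chr17:8383174-8383203, minus): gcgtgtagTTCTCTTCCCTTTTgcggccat
RPL26L1 (chr5:172958719-172958748, plus): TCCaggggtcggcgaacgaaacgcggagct
RPL7L1 (chr6:42879606-42879635, plus): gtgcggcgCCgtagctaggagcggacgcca

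RefSeq promoters were found for 66 of the 82 members. A run of at least 8 pyrimidines lay in the 30-base window of 50 of them (75.8%), against 12.6% of all 27305 promoters in the table. The median longest run was 10.5 bases in members and 4 in all promoters. RPL22L1 carried a run of 10 as its canonical partner RPL22 carried 1 of 11, whereas the longest run was 3 in RPS27L and RPL26L1 and 2 in RPL7L1. Canonical members also lacked a run of at least 8, among them RPL3 and RPL11, each with a longest run of 5. In the 300 bases around the start, counted on both strands, CCGGAAG, the core that ETS factors bind, was present in 34.8% of members and in 10.7% of all promoters. The letters TATAAA of the TATA box were present in 9.09% and 12.0%. A match is a description of the letters and not a mapped start or a bound site.

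The members took between 3.60% and 5.37% of all counts of a library, with a median of 4.02%. Per length, in CPM divided by the counted length in kilobases (RPKM), their median level was 548, against 11.4 for all genes tested. The highest mean levels were those of RPLP1, the acidic stalk protein (2200 ± 309 RPKM, SD, n = 36), RPS6, the substrate of S6 kinase (1990 ± 200 RPKM), RPS15A (1580 ± 224 RPKM) and RPL19 (1560 ± 171 RPKM). RPLP1 and RPS6 differed by less than the SD of RPLP1, and RPS15A and RPL19 by less than either SD. The lowest mean level was that of RPS26 (7.87 ± 2.08 RPKM), followed by RPL22L1 (21.1 ± 8.43), RPL7L1 (21.2 ± 3.55) and RPL39L (48.2 ± 7.93). The levels covered a 280-fold range among the 74 canonical members with at least 300 bp of counted length. The low end of this range was RPS26 alone, and the next lowest canonical member was RPL36A at 66.2 RPKM. Many members have near-identical processed copies elsewhere in the genome, RPS26 among them, and how reads shared with such copies were counted is not given in the sources used here.

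**Figure D1:**
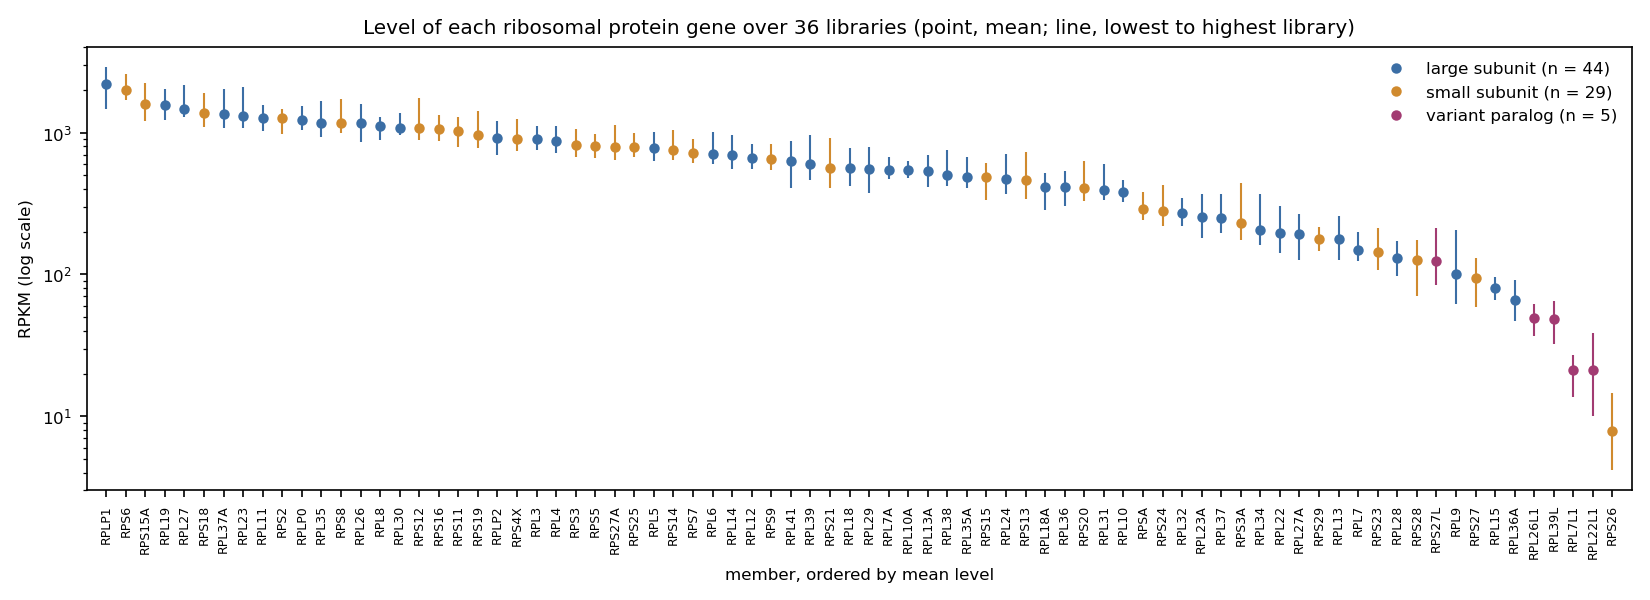
Mean level in RPKM (log scale) of 78 members with at least 300 bp of counted length, each with a line from its lowest to its highest library, with colours for the subunits and the variant paralogs. RPLP1 stands at 2200 RPKM and RPS26 at 7.87 RPKM, and 4 of the 5 variant paralogs lie at or below 49.0 RPKM.

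The counted lengths of 3 members were too short for a level per length, with 4 bp for RPL21, 94 bp for RPS10 and 269 bp for RPL17, and the mean count of RPL21 was only 1.96 CPM. Other members had long counted lengths, which lowered their level per length. RPL27A (4879 bp) ranked 10 of the members by mean CPM and 66 by mean RPKM. RPL13 (4499 bp) ranked 16 and 68, and RPL28 (4207 bp) 31 and 71. The order by RPKM therefore depends on the counted length. The members were short as a group, with a median counted length of 716 bp against 2906 bp for all genes tested, whereas their GC content was near that of all genes (median 50.5% against 49.2%). The small subunit genes had a median level of 688 RPKM and the large subunit genes 540 RPKM. The order of levels was nearly the same in each library, with a Spearman correlation over the 82 members of at least 0.958 in the 630 pairs of libraries (median 0.985). All libraries share gene lengths and base composition, which fix part of this order.

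Within groups, the SD of log2 CPM over the 36 libraries had a median of 0.185 in the members. It was 0.201 for all genes tested and 0.158 for the 6381 genes with a mean log2 CPM above 5. The steadiest members were RPS2 (0.104), RPL15 (0.113), RPS3 (0.116) and RPLP0 (0.119). The most variable were RPL21 (0.491), RPS26 (0.371), RPL9 (0.365) and RPS28 (0.359). Among the members used as reference genes, RPLP0 ran from 1260 to 1870 CPM over all 36 libraries, a 1.49-fold range, RPL13A from 214 to 365 CPM (1.70-fold) and RPS18 from 592 to 1020 CPM (1.73-fold). RPS15 ran from 178 to 323 CPM, RPL11 from 647 to 982 CPM and RPL5 from 652 to 1040 CPM. RPL13A also differed between the times, as given below, whereas RPLP0 and RPS18 were not called in any comparison.

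The libraries of 1 replicate number stood apart at 6 h. Replicate 1 had the highest share of counts in members in all 6 groups, from 4.19% to 5.37%, and the other 12 libraries at 6 h lay between 3.60% and 4.01%, below each of these 6. At 24 h the share ran from 4.01% to 4.30% in replicate 1, from 3.65% to 4.22% in replicate 2 and from 3.91% to 4.38% in replicate 3, and the 3 ranges overlapped. A term for the replicate number was called in 56 of 82 members at 6 h (68.3%), against 35.4% of all genes tested. At 24 h it was called in 34 members (41.5%), against 17.2%. At 6 h, 75 members were lower in replicate 2 than in replicate 1 and 69 were lower in replicate 3, with medians of −0.23 and −0.22 on the log2 scale. The replicate number took a median of 56.7% of the variance of a member at 6 h and the treatment group 11.9%, against 28.2% and 19.1% for all genes. At 24 h these shares were 29.1% and 31.1%, against 18.7% and 29.8% for all genes. The number was taken to mark the experiment, and results that moved with it as a block in the fit are given below in both forms. By library number, 23 libraries formed an earlier series and 13 a later one. The later series held all libraries of replicate 3 and also DHA + PRO at 6 h replicate 2. Replicate number and series therefore cannot be fully told apart. A term for the series was called in 31 members at 6 h (37.8%, against 26.7% of all genes) and in 14 at 24 h (17.1%, against 3.47%).

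**Figure D2:**
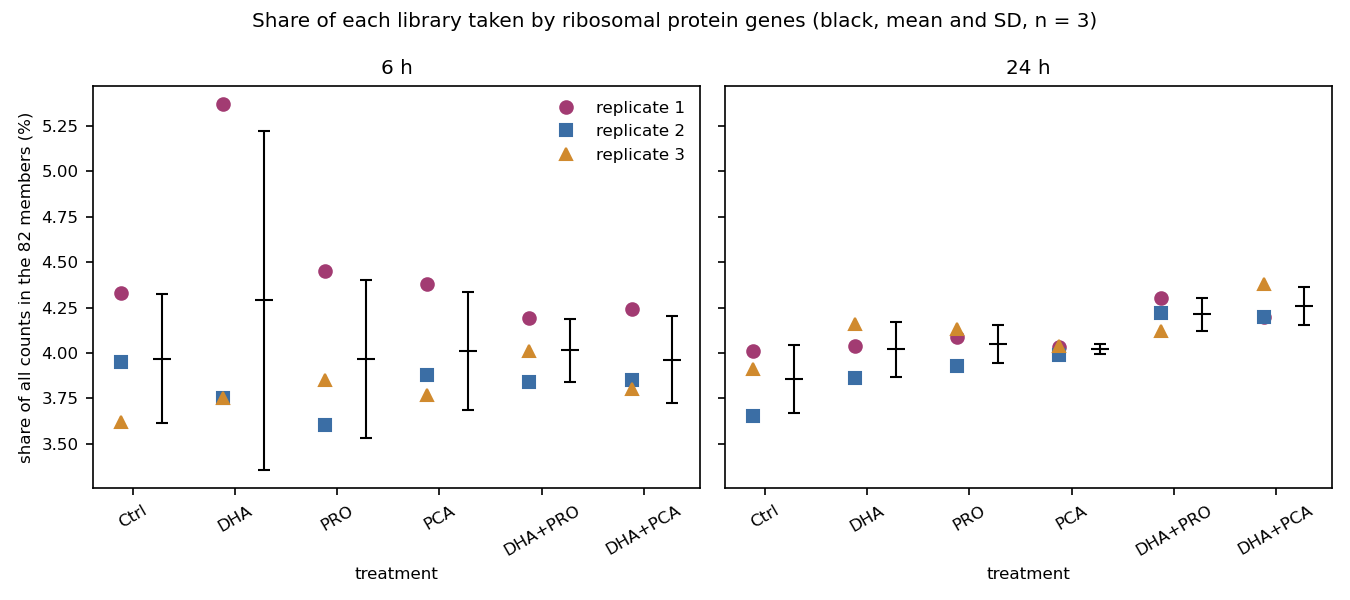
Share of all counts (%) taken by the 82 members in each library, by treatment and time, with a symbol for each replicate number and the mean and SD of 3 libraries in black. Replicate 1 is the highest in all 6 groups at 6 h, and DHA at 6 h replicate 1 is the highest of all at 5.37%.

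Libraries differed in how their counts depended on gene length. Across the 18 libraries of a time point, the median deviation of the members from their group means correlated with the dependence of all genes on length (r = −0.65 at 6 h and −0.55 at 24 h), so members tended to be high where short genes were high. These points share depth and library preparation, and the values are a description. With the dependence of all genes on GC content, r was −0.23 at 6 h and near 0 at 24 h. The library with the largest deviation, DHA at 6 h replicate 1, had 79 of 82 members above their group means and also the strongest dependence on length of the 18 at 6 h (r = −0.285 across all genes).

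No member was called in any of the 5 treatments against Ctrl at 6 h (edgeR quasi-likelihood F test, adjusted p of at most 0.05 and average log2 CPM above 0). The percentage of all 11872 genes called was 0.0168 with DHA, DHA + PRO and DHA + PCA and 0 with PRO and PCA. At an unadjusted p under 0.05, 1 member differed with PRO (1.22%, against 1.65% of all genes). None did with DHA (against 2.84%), PCA (0.724%), DHA + PRO (2.22%) or DHA + PCA (3.15%), and the DESeq2 Wald test called no member in these 5 comparisons. With the replicate block no member was called either, and 6 were higher with DHA at the unadjusted limit (7.32%, against 3.48%). The SE of a log2 fold change had a median of 0.157 over the members, which limits what could be detected for a single gene.

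With DHA alone, 75 of 82 members had a positive log2 fold change at 6 h, (91.5%, against 50.1% of all genes) and the median was 0.107. RPLP0, the scaffold of the ribosomal stalk, had 1370, 1300 and 1460 CPM in Ctrl and 1870, 1260 and 1440 CPM with DHA. RPS6 had 1850, 1540 and 1560 CPM in Ctrl and 2140, 1460 and 1520 CPM with DHA. In both genes replicate 1 with DHA was above all Ctrl libraries and the other two DHA libraries lay within or below the Ctrl range. Without DHA at 6 h replicate 1, the median of the members was −0.107. Within replicate numbers, the median difference between DHA and Ctrl was 0.33, −0.09 and 0.01 for numbers 1, 2 and 3, with 81, 5 and 45 members higher. Genes that were no members, with a log2 CPM above 5 and under 700 bp of counted length (n = 109), had a median of 0.117 in the same comparison, and those of 4000 bp or more had −0.084. With an offset for counted length in each library, the median of the members was −0.022.

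With the other treatments at 6 h the members lay near 0. The median log2 fold change was −0.019 with PRO, −0.004 with PCA, 0.020 with DHA + PRO and −0.007 with DHA + PCA. Each of the 4 changed sign when 1 library was left out, over −0.120 to 0.058 with PRO, −0.080 to 0.073 with PCA, −0.041 to 0.080 with DHA + PRO and −0.051 to 0.057 with DHA + PCA. The highest came without Ctrl replicate 1 in each, and the lowest without replicate 1 of the treatment or, with DHA + PRO, without Ctrl replicate 3. The pooled effect of DHA, that is, the 9 libraries with DHA against the 9 without it, had a median of 0.044 over the members, with none called against 0.202% of all genes and none at an unadjusted p under 0.05 against 2.88%. It ran from −0.08 for RPS27L to 0.26 for RPL21, whose level rested on few counts. Without DHA at 6 h replicate 1 this pooled median was −0.024.

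At 24 h no member was called with any treatment in the fit without the block, while the percentage of all 11893 genes called was 0.193 with DHA, 0.395 with DHA + PRO, 0.286 with DHA + PCA and 0 with PRO and PCA. The DESeq2 Wald test called 2 members with DHA + PRO (2.44%, against 0.622% of all genes) and none with the other four treatments. With the replicate block, 4 members rose with DHA + PRO (4.88%, against 1.14% of all genes) and 6 with DHA + PCA (7.32%, against 1.09%), and none was called with DHA, PRO or PCA. With the block and an offset for GC content these counts were 19 (23.2%, against 3.72%) and 24 (29.3%, against 3.57%). At an unadjusted p under 0.05, 21 members were higher with DHA + PRO (25.6%, against 3.43% of all genes) and 22 with DHA + PCA (26.8%, against 3.39%), and none was lower with either. With DHA alone 1 member was higher at this limit (1.22%, against 2.67%), with PRO 9 (11.0%, against 3.31%) and with PCA 7 (8.54%, against 1.91%). With the block, the members higher at this limit were 31 with DHA + PRO (37.8%, against 6.0% of all genes), 36 with DHA + PCA (43.9%, against 5.53%), 5 with DHA (6.10%, against 4.3%), 17 with PRO (20.7%, against 5.26%) and 18 with PCA (22%, against 3.41%). The 3 treated libraries lay above all 3 Ctrl libraries in 19 members with DHA + PRO (23.2%, against 7.28% of all genes) and in 25 with DHA + PCA (30.5%, against 6.26%), whereas this held for 2 members with DHA alone (2.44%, against 4.63%). Members of 1 list share the same libraries and are not independent of each other.

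RPL41, the shortest ribosomal protein, had 239, 302 and 363 CPM in Ctrl, 351, 427 and 469 CPM with DHA + PRO and 393, 510 and 426 CPM with DHA + PCA. Only the DHA + PCA libraries were all above Ctrl, with a log2 fold change of 0.55 (SE 0.153, adjusted p = 0.203). With the block RPL41 was called with both combinations, at 0.47 (adjusted p = 0.00564) and 0.57 (adjusted p = 0.000688). The single compounds gave 328, 359 and 391 CPM with DHA, 350, 394 and 504 CPM with PRO and 301, 439 and 386 CPM with PCA. Without the block the log2 fold change was 0.46 with PRO, as with DHA + PRO, and 0.32 with PCA.

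RPL19 and RPL11 were steadier. RPL19 had 1000, 987 and 1030 CPM in Ctrl, 1210, 1200 and 1250 CPM with DHA + PRO and 1260, 1210 and 1190 CPM with DHA + PCA, and a log2 fold change of 0.28 with both (adjusted p = 0.285 and 0.289). RPL11, which binds MDM2, had 752, 755 and 696 CPM in Ctrl, 888, 890 and 873 CPM with DHA + PRO and 840, 972 and 816 CPM with DHA + PCA. In both genes the libraries of the combinations did not overlap Ctrl, and neither gene passed the adjusted threshold without the block. With PRO alone RPL19 had 1130, 1130 and 1310 CPM and RPL11 894, 855 and 892 CPM, also all above Ctrl. With PCA alone RPL19 had 1210, 1130 and 1130 CPM, above Ctrl, and RPL11 809, 866 and 745 CPM, overlapping it. With DHA alone both genes overlapped Ctrl (1130, 899 and 1060 CPM, and 747, 734 and 710 CPM). With the block RPL19 was called at 0.28 with both combinations (adjusted p = 0.0348 and 0.0373) and RPL11 at 0.27 and 0.25 (adjusted p = 0.0257 and 0.0395). The 2 combinations were compared with the same Ctrl libraries.

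**Figure D3:**
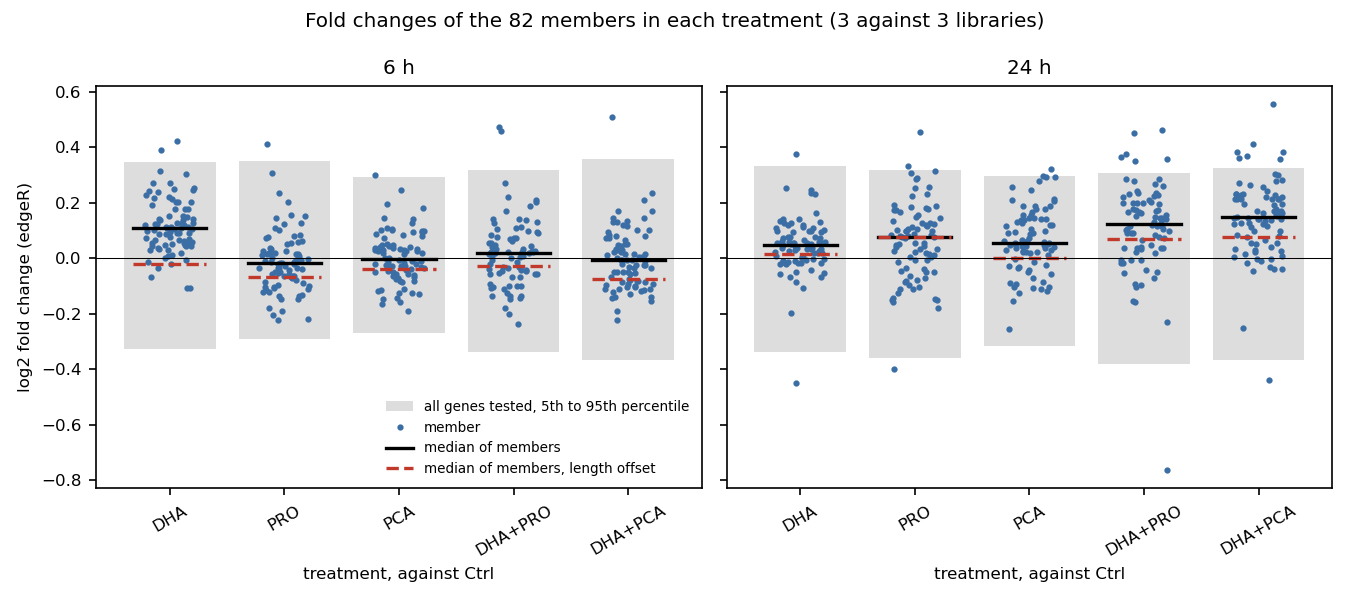
Log2 fold change of each of the 82 members (points) in each treatment against Ctrl at 6 h and 24 h, with the median of the members without (black) and with (red, dashed) an offset for counted length and the 5th to 95th percentile of all genes tested in grey. Medians were 0.107 with DHA at 6 h, 0.125 with DHA + PRO and 0.149 with DHA + PCA at 24 h, and with the offset −0.022, 0.070 and 0.078.

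Over all members, the median log2 fold change at 24 h was 0.046 with DHA, 0.075 with PRO, 0.055 with PCA, 0.125 with DHA + PRO and 0.149 with DHA + PCA, and 59, 57, 61, 66 and 72 of the 82 were positive. Positive values made up 51.3%, 48.1%, 49.9%, 49.9% and 50.5% of all genes in these comparisons. The medians of all genes tested were within 0.01 of 0 in each. Within replicate numbers 1, 2 and 3, the median difference from Ctrl was 0.110, 0.234 and 0.071 with DHA + PRO and 0.030, 0.228 and 0.193 with DHA + PCA. Leaving out 1 library at a time gave medians from 0.084 to 0.160 with DHA + PRO and from 0.092 to 0.193 with DHA + PCA, and the lowest of each came without Ctrl replicate 2, the library with the smallest share of counts in members at 24 h (3.65%). With the single compounds, leaving out 1 library gave medians from 0.008 to 0.090 with DHA and from 0.014 to 0.102 with PCA, both lowest without Ctrl replicate 2 and highest without Ctrl replicate 1. With PRO they ran from 0.032, without PRO replicate 3, to 0.094. Within replicate number 1 the median was −0.010 with DHA and −0.012 with PCA. The share of counts was 4.01%, 3.65% and 3.91% in the Ctrl libraries, 4.30%, 4.22% and 4.12% with DHA + PRO and 4.20%, 4.20% and 4.38% with DHA + PCA. All 6 libraries of the combinations were above all 3 of Ctrl in this share.

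Other short genes also had positive medians with the combinations and PCA. Genes under 700 bp that were no members (n = 104) had medians of 0.118 with DHA + PRO, 0.156 with DHA + PCA and 0.097 with PCA at 24 h, and genes of 4000 bp or more had −0.036, −0.042 and −0.040. With the offset for counted length, the medians of the members were 0.070 with DHA + PRO, 0.078 with DHA + PCA and 0.000 with PCA, and at an unadjusted p under 0.05, 7 members (8.54%) rather than 21 and 22 were higher with each combination, against 3.14% of all genes with DHA + PRO and 3.04% with DHA + PCA. In the fits with the block the offset took the count from 31 to 17 with DHA + PRO (20.7%, against 5.55%) and from 36 to 16 with DHA + PCA (19.5%, against 5.04%). With PRO the short genes had a median of 0.005 and the members 0.075, and the offset left the members at 0.077. Among the members themselves the relation to length ran the other way. The correlation of the log2 fold change with counted length was 0.26 across the 82 members and −0.152 across all genes with DHA + PRO, 0.13 and −0.17 with DHA + PCA, and 0.31 and −0.169 in the pooled DHA effect. The genes of a comparison share its libraries, and these values are a description. An offset for GC content gave 0.119 with DHA + PRO and 0.151 with DHA + PCA. The part that the length dependence of the libraries had in these differences was not tested beyond these offsets.

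Against DHA alone at 24 h, the members had a median of 0.084 with DHA + PRO and 0.108 with DHA + PCA, and no member was called, as no gene was (0% of all genes). At an unadjusted p under 0.05, 13 members were higher with DHA + PRO (15.9%, against 2.35%) and 14 with DHA + PCA (17.1%, against 1.40%), and with the block 20 (24.4%, against 4.16%) and 26 (31.7%, against 2.61%). Without DHA replicate 2 the median with DHA + PRO was 0.038, and within replicate number 3 it was 0.006, with 43 members higher. Leaving out 1 library gave 0.077 to 0.130 with DHA + PCA. The Wald test called 2 members with DHA + PRO (2.44%, against 0.0925% of all genes) and none with DHA + PCA. Non-members under 700 bp had medians of 0.086 and 0.134 in these comparisons. At 6 h the medians against DHA were −0.095 and −0.123, and without DHA at 6 h replicate 1 they were 0.123 and 0.081. The 6 h values therefore turned with 1 library.

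The pooled effect of DHA at 24 h was positive in 76 of 82 members (92.7%, against 52.5% of all genes), with a median of 0.055, and none was called against 1.23% of all genes. At an unadjusted p under 0.05, 4 members were higher (4.88%, against 4.09%), and with the block 18 (22%, against 6.73%), with none called. RPS28 had the largest rise in value (50.8 ± 11.4 CPM in the 9 libraries with DHA and 44.3 ± 10.2 CPM in the 9 without, log2 fold change 0.20, adjusted p = 0.685) and RPL21 the largest fall (−0.38, adjusted p = 0.728), and both groups overlapped in each. The smallest adjusted p was 0.272, for RPS21 (216 ± 11.6 against 196 ± 17.3 CPM, log2 fold change 0.14, SE 0.0514). With the offset for counted length the median was 0.013. The change of the pooled effect from 6 h to 24 h was not called in any member or any other gene, and ran from −0.63 for RPL21 to 0.21 for RPS28.

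Between 6 h and 24 h, over all treatments, 20 of 82 members were called (24.4%), against 61.0% of the 12046 genes tested. Of these 11 rose (13.4%, against 30.1%) and 9 fell (11.0%, against 31%). With the replicate block 32 were called (39.0%, against 65.9%), 18 of them higher. With upper quartile scaling 20 rose and 7 fell (60.5% of all genes called), and with scaling on genes that are no members 10 rose and 13 fell (61.5%). Of the members, 78 of 82 (95.1%) differed by less than 0.25 on the log2 scale, against 55.7% of all genes. The members had a median level of 442 CPM against 35.4 CPM for all genes tested. No set of genes at a like level was compared. The median log2 fold change over the members was 0.012, with 0.039 in the large and −0.023 in the small subunit. Time was also time in serum-free medium, and culture time and treatment time cannot be told apart. The libraries of each time came from 3 experiments and are not independent cultures.

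The 3 members that fell most were variant paralogs. RPL22L1, the paralog of the RNA-binding protein RPL22, ran from 42.9 to 75.6 CPM at 6 h with a median of 55.7 and from 19.7 to 42.8 CPM at 24 h with a median of 24.0. The 18 libraries at 24 h all lay below the 18 at 6 h, by a narrow margin, and no other member was separated in this way (1.22%, against 2.24% of all genes). The log2 fold change was −1.04 (SE 0.102, adjusted p = 1.04e-10), and it lay between −1.30 and −0.90 in the 6 treatments taken singly. Replicate 1 was the highest at both times, with 55.6 to 75.6 CPM at 6 h and 29.9 to 42.8 CPM at 24 h, and within each replicate number the 2 times did not overlap. RPL22 itself had a median of 364 CPM at 6 h and 428 CPM at 24 h and was called only with the block (0.13, adjusted p = 0.013). RPL22L1 made up a median of 13.3% of the summed RPKM of the pair at 6 h and 6.18% at 24 h, and these ranges (11.2% to 16.8% and 4.55% to 9.05%) did not overlap.

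RPS27L, a p53 target, fell by 0.42 on the log2 scale (SE 0.0887, adjusted p = 0.000109). It ran from 115 to 231 CPM at 6 h with a median of 141 and from 91.7 to 164 CPM at 24 h with a median of 113, and the times overlapped. Per length it was above its canonical partner at the median, with a median of 60.1% of the summed RPKM of RPS27 and RPS27L at 6 h (55.5% to 66.5%) and 53.1% at 24 h (47.8% to 57.6%), so it was below RPS27 in some libraries at 24 h. The counted level of RPS27 was low, with a mean of 94.6 RPKM against a median of 548 over the members. How any reads shared with copies of RPS27 were counted is not given, so these percentages describe counted reads only. RPL26L1 fell by 0.26 (SE 0.0532, adjusted p = 7.61e-05), from a mean of 37.9 ± 2.99 to 31.7 ± 3.99 CPM, and was 4.61% of its pair with RPL26 at 6 h and 3.53% at 24 h. RPL39L had 33.9 and 34.3 CPM and was not called. RPL7L1 was called only with the block (−0.17, adjusted p = 0.0167), and its values at 6 h divided by replicate number, with 17.4 to 26 CPM in replicate 1 and 29.1 to 34.3 CPM in the other 12 libraries. In RPS27L it was replicate 1 that was high at 6 h (168 to 231 CPM, against 115 to 154 CPM). Canonical RPL3 and RPL10 were counted at medians of over 400 CPM at both times, while RPL3L and RPL10L were at or near 0.

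**Figure D4:**
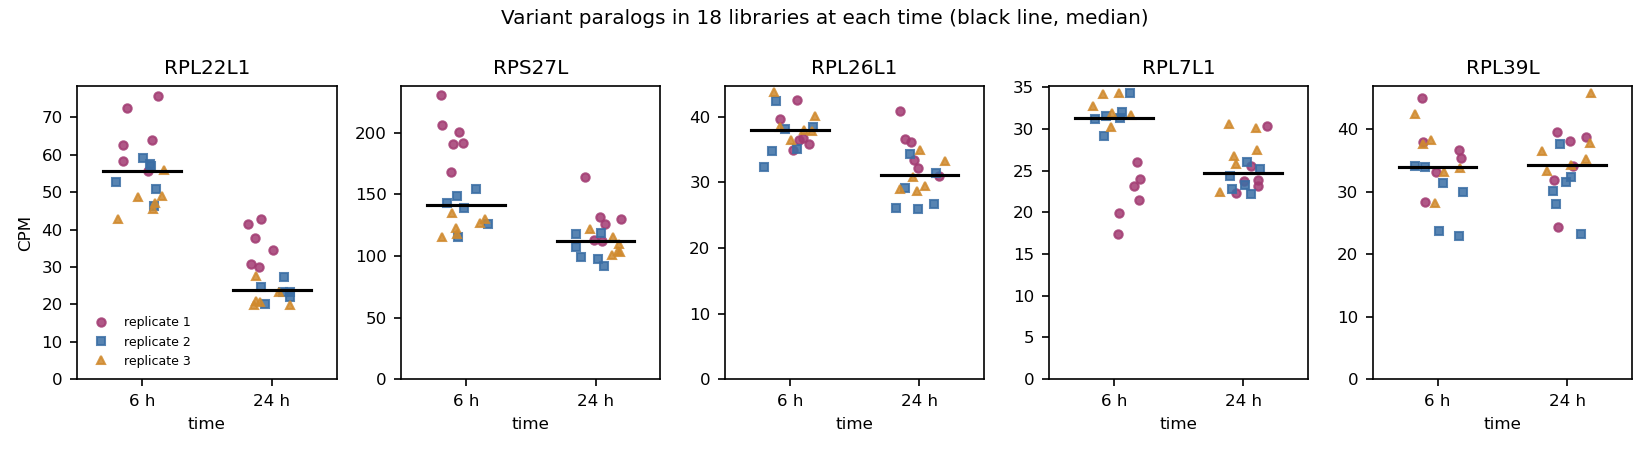
CPM of the 5 variant paralogs in the 18 libraries at 6 h and the 18 at 24 h, with a symbol for each replicate number and the median as a black line. RPL22L1 went from a median of 55.7 to 24.0 CPM with no overlap, RPS27L and RPL26L1 fell with overlap, and RPL7L1 in replicate 1 was below the other libraries at 6 h.

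The canonical members that fell were RPS12 (−0.23, adjusted p = 0.000224), RPS21 (−0.22, adjusted p = 0.000176), RPS13 (−0.19, adjusted p = 0.007) and RPL7 (−0.16, adjusted p = 0.00277), with RPL38 and RPS27A at −0.13. The largest rise was that of RPL13A, from 253 ± 41.4 CPM at 6 h to 305 ± 21.1 CPM at 24 h (0.27, SE 0.0602, adjusted p = 0.000225). RPL3, which reaches towards the peptidyl transferase centre, rose from 1120 ± 109 to 1290 ± 78.1 CPM (0.20, adjusted p = 8.49e-05). RPS2 rose by 0.13 on the log2 scale (adjusted p = 0.00418). The other 8 that rose, which were RPL27A, RPL13, RPL36A, RPL28, RPL15, RPL12, RPL10 and RPL4, had values between 0.12 and 0.23. In all 17 canonical members that were called, the libraries of the times overlapped. Of the 46 canonical large subunit members 10 rose and 2 fell, and of the 31 of the small subunit 1 rose and 4 fell. In this comparison 61.0% of all genes were called, and the difference between the subunits was not tested. With an offset for GC content, RPL10, RPL12, RPL13, RPL13A, RPL28 and RPS2 were no longer called among those that rose. Among those that fell, RPL7, RPS13 and RPS27A were not.

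GC content moved with part of these calls. Across all genes the log2 fold change between the times correlated with GC content (r = 0.308), and across the members r was 0.30. With an offset for GC content 9 of the 20 were no longer called, among them RPL13A (0.15, adjusted p = 0.0572) and RPS2 (−0.01, adjusted p = 0.775), while 30 members were called in all. Without the offset 20 members and 61.0% of all genes were called. The share of all genes called with the GC offset alone is not given here, so the 30 are not set against it. With the block and the offset together 3 of the 20 were not called, namely RPL7, RPS2 and RPS27A, RPL13A was (0.17, adjusted p = 0.0034), and 41 members were called in all (50%, against 67.2% of all genes). RPL22L1, RPS27L, RPL26L1, RPS12, RPS21, RPL3, RPL15, RPL27A and RPL36A were called in each of the 50 alternatives run for them.

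**Figure D5:**
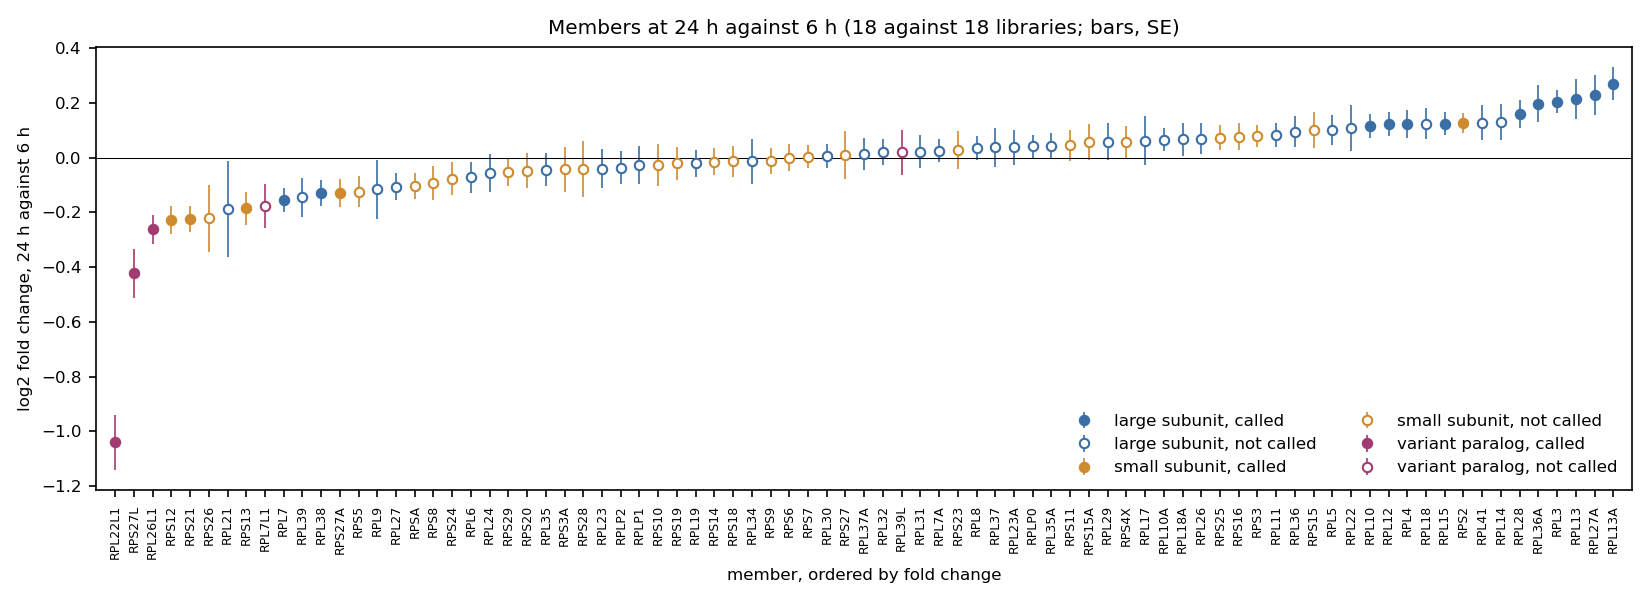
Log2 fold change at 24 h against 6 h of 81 members with its SE (18 against 18 libraries), in order of size, filled where called and coloured by subunit or as variant paralog. RPL22L1 stands apart at −1.04, and RPL13A, the largest rise, at 0.27.

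Of the 66 members with a promoter sequence, the 50 with a run of at least 8 pyrimidines had a median of −0.006 between the times, with 11 called, and the 16 without it had 0.061, with 7 called. In the same comparison 61.0% of all genes were called. With DHA + PRO and DHA + PCA at 24 h the medians were 0.126 and 0.154 with the run and 0.103 and 0.133 without it. These differences between the classes were not tested.

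Other genes of ribosome production were counted beside the members. Between the times, of 65 ribosome biogenesis factors 1 rose and 38 fell (median −0.149), with EBNA1BP2, a nucleolar factor of the large subunit, at −0.62 (adjusted p = 6.63e-13). Of 30 translation initiation and elongation factors 1 rose and 20 fell (median −0.198), and of 16 chaperones and importers of ribosomal proteins 2 rose and 9 fell (median −0.168). Of 15 genes of RNA polymerase I and its factors 3 rose and 5 fell (median −0.093), with UBTF, the upstream binding factor of rDNA, at −0.39. Of 20 further genes known for TOP mRNAs, such as EEF1B2 (0.29), 7 rose and 4 fell (median 0.082), and of 77 mitochondrial ribosomal proteins 10 rose and 27 fell (median −0.080). Of 19 mTORC1, LARP1 and MYC regulators 5 rose and 6 fell, and of 12 genes of the axis from ribosomal proteins to p53 4 rose and 5 fell. Of all genes tested, 61.0% were called. These list values carry no offset for GC content. Median GC content was 46.7% in the biogenesis factors, 48.0% in the translation factors, 44.1% in the chaperones and importers and 46.1% in the RNA polymerase I list. It was 46.8% in the TOP list, 49.7% in the mitochondrial list, 52.3% in the mTORC1 list and 52.0% in the p53 axis, against 49.2% for all genes.

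None of these 8 lists held a called gene in a treatment comparison without the block. Their medians with DHA + PCA at 24 h were 0.158 in the biogenesis factors, 0.102 in the mitochondrial ribosomal proteins, 0.077 in the translation factors, 0.075 in the RNA polymerase I list, 0.055 in the TOP list, 0.048 in the chaperones and importers, −0.017 in the mTORC1, LARP1 and MYC regulators and −0.036 in the p53 axis, against 0.149 in the members. The median counted length was 2356 bp in the biogenesis list and 1182 bp in the mitochondrial list, against 716 bp in the members.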

How the data were processed

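RNA of 36 HepG2 samples was sequenced by the authors, who aligned the reads with STAR to hg19 (GRCh37), per the labels, and counted them with iRNA-seq. The deposited values are raw counts per RefSeq gene, without normalization, and other columns deposited by the authors give position, strand and counted length in bp. RT-qPCR and lipid values were not used here. Groups and replicate numbers came from the labels. The file headers give 1 set of wells to each replicate number in all groups, and the study describes 3 independent cultures, so the number was taken to mark the experiment. Of the 45 pairs of same-numbered libraries, 36 at 6 h and 32 at 24 h had a residual correlation over 0.1, and 16 and 17 of 18 libraries correlated best with their own number.

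Differences were tested by edgeR 4.0.16 in R 4.3.3 (filterByExpr, TMM, quasi-likelihood F test), separately for the 18 samples of each time and jointly for 36 between times. The Benjamini-Hochberg adjustment covered the whole table of tested genes. Genes were called where the adjusted p was 0.05 or less and the average log2 CPM exceeded 0. The SE is the log2 fold change divided by the square root of F. Whether a treatment differed for 1 gene could also be asked by permutation, but 3 against 3 cannot go below p = 0.1. No pair of libraries was a duplicate (lowest chi-square per degree of freedom 1.93 in 630 pairs). Reads carry no described molecular identifiers, and p-values measure the spread between these experiments.

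Offsets were smoothing splines with 5 degrees of freedom per library on GC content, known for 18823 of 18932 genes and all 82 members, or on log2 counted length. Alternatives were DESeq2 size factors, the DESeq2 1.42.0 Wald test, upper quartile scaling, TMM on non-members, no filter, fits of only the groups compared, the replicate number or the library series as a factor, offsets, thinning the deepest library to 6799496 counts and leaving out each sample. Chosen after seeing the data were the block within each time and both offsets with the block. The scripts were tested on simulated data.

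The members and lists were chosen with earlier results of these data known. Members named are the 4 highest and lowest by RPKM, the 4 most and least variable, the extremes of the pooled DHA effect and of time, paralog pairs, reference genes, RPL5, RPL11, RPS6, RPL41, RPS15, and called members, up to 10 by adjusted p for each comparison. The other called members, the 16 members without a pyrimidine run and the genes of other lists beyond the first by p were named or counted after their values were seen. 1 member is counted but not reported by name here.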

Additional observations from a re-analysis of the deposited data

How the results depend on the processing

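Without the replicate block, the count of members called was 0 in each of the 16 treatment comparisons and in the change of the DHA effect with time, and stayed at 0 in most alternatives. At 24 h against Ctrl, DHA + PRO had 2 called with no filter (against 0.474% of all genes) and 2 with the Wald test (0.622%). Against DHA alone the Wald test also called 2 with DHA + PRO (0.0925%). Against Ctrl, DHA + PRO had 1 each with the library series as a factor, the GC offset and a fit of only the groups compared. DHA + PCA had 1 with no filter (0.444%), 1 with the GC offset and 1 with only the groups compared. Shares of all genes are not given here for the series, the GC offset alone, only the groups compared or the fits leaving out 1 library. Leaving out 1 library gave 0 to 1 for DHA + PRO (1 without DHA replicate 3 or PRO replicate 1), 0 for the other treatment comparisons, and 19 to 30 of 82 between the times, the 30 without DHA at 6 h replicate 1. With the replicate block, 4 members were called with DHA + PRO, 6 with DHA + PCA and 32 between the times, or 33 with the block within each time, and the block changed no other count of called members. With the block and the GC offset together these were 19, 24 and 41 (against 3.72%, 3.57% and 67.2% of all genes), with 3 for DHA (1.72%), 6 for PRO (0.370%), 11 for the pooled DHA effect (7.11%), and 4 (0.420%) and 1 (0.101%) for DHA + PRO and DHA + PCA against DHA, all higher apart from those between the times. With the block and the length offset, 1 was called with DHA + PCA (0.740%) and 36 between the times (66.7%). With the block and both offsets these were 6 for PRO (0.294%), 6 for DHA + PRO (2.69%), 6 for DHA + PCA (2.22%), 1 for the pooled effect (5.56%), 2 (0.244%) and 1 (0.0504%) against DHA and 45 between the times (67.4%). The cause of these differences between fits was not tested. RPS2 between the times reversed to −0.01 with the GC offset, −0.01 with GC offset and block, and −0.03 with both offsets and block. RPL4 lost its call in 28 of 50 alternatives and RPS27A in 8. The length and GC splines used degrees of freedom that the tests do not count, and 3 libraries a group limit the detection of single differences near the SE of 0.104 at 24 h and 0.157 at 6 h.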
